A study of Sus scrofa with 6 samples.

Results

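The 6 genes NRXN3, NLGN1, LRRTM4, IL1RAPL2, TENM2 and LRP1B, most of which encode proteins of trans-synaptic adhesion and among which LRP1B encodes an endocytic receptor, were followed in porcine midbrain-like organoids (pMLOs). They were chosen by symbol from the 30477 genes of the count matrices, with earlier results of these data known, so their differences between days, between STMN2-positive and STMN2-negative cells and between barcodes of low and high depth are given as descriptions without a test. The pMLOs were grown from the pig embryonic stem cell line IVF_1_ pESC_FIW, which came from in vitro fertilised embryos, and were sampled on day 11 (D11), day 28 (D28) and day 45 (D45) of culture. Each day gave 2 libraries, A and B, from droplet-based 3' sequencing of single cells, and no genotype separated the groups. The culture changed with the day: per the study's methods, organoids were in medium with FGF8, BDNF and ascorbic acid at D11, whereas by D28 they had been embedded in Matrigel and kept on a shaker with BDNF, GDNF, ascorbic acid, db-cAMP and the Notch pathway inhibitor DAPT. Differences between D11 and the later days therefore cannot be told apart from this change of culture. The study calls the duplicates biological, but the labels do not say whether A and B were separate differentiations, so p-values measure only the spread between these libraries. All libraries came from 1 cell line.

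Synapses are held together by proteins that reach across the cleft. Neurexins such as NRXN3 sit mostly in the presynaptic membrane and bind postsynaptic partners, among them neuroligins (NLGN1) and leucine-rich repeat transmembrane proteins (LRRTM4), often with specificity set by alternative splicing and by secreted linkers. IL1RAPL2 belongs to the interleukin-1 receptor accessory family, whose close relative IL1RAPL1 binds the presynaptic phosphatase PTPRD. TENM2 is a teneurin that pairs with latrophilins, and LRP1B is a large endocytic receptor of the LDL receptor family that is abundant in brain. Taken as families, neurexins, neuroligins and teneurins act at excitatory and inhibitory synapses, while LRRTM proteins are known mainly from excitatory ones. A single member such as NLGN1 need not follow its family in this.

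All members are very long genes in Sscrofa11.1 (RefSeq annotation). NRXN3 lies on chromosome 7 (chr7:101132780-102779809, plus strand), NLGN1 on chromosome 13 (chr13:111851007-112727202, plus), LRRTM4 on chromosome 3 (chr3:66128650-66884916, plus), IL1RAPL2 on chromosome X (chrX:85347867-86464670, plus), TENM2 on chromosome 16 (chr16:55624273-59084150, minus) and LRP1B on chromosome 15 (chr15:9612805-11499969, plus). The longest transcript of each fills between 0.315% (TENM2) and 1.02% (NLGN1) of the gene span with exons, and the rest is intron. Among 19546 protein-coding genes TENM2 ranks 1st by span, LRP1B ranks 9 and NRXN3 ranks 13, and even the shortest member, LRRTM4, ranks 107 with 756 kb. NRXN3 has 35 annotated transcripts with 9 distinct starts, and NLGN1 has 14 with 7, so 3' tags counted per gene cannot tell a long neurexin form from a short one. IL1RAPL2 overlaps 1 other coding gene, TEX13A, and no other member overlaps a coding gene.

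The 200 bases before the annotated start of NRXN3, IL1RAPL2 and LRP1B are shown because these are the members whose difference by GAD1 and GAD2 differed between D28 and D45 (5' to 3' on the gene's strand, lower case, with capitals marking a searched motif).
NRXN3, chr7:101132580-101132779: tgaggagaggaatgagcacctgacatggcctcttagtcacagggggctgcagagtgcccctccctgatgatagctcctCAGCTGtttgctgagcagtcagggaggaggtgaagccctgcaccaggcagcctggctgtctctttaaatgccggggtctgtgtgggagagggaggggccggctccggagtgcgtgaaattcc
IL1RAPL2, chrX:85347667-85347866: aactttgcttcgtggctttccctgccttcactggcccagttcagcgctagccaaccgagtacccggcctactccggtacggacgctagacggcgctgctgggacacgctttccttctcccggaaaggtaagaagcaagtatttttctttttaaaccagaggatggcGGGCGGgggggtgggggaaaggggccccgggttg
LRP1B, chr15:9612605-9612804: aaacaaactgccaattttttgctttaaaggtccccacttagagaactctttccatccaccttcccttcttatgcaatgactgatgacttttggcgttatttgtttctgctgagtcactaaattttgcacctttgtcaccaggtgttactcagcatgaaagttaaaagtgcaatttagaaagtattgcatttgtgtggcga
The motifs searched on both strands were TATAAA, the core of the TATA box, then TAATTA, the core that homeodomain factors bind, then the E-box CAGCTG with another E-box form, CATATG, and finally GGGCGG, the GC box. NRXN3 held 1 CAGCTG, which 11.08% of 20652 windows of the same length held, and IL1RAPL2 held 1 GGGCGG, which 42.4% held. The windows of NLGN1, LRRTM4, TENM2 and LRP1B held none of these motifs. GC content was 60.5% for NRXN3, 59.5% for IL1RAPL2 and 62.5% for NLGN1, but 45.0% for TENM2, 38.5% for LRP1B and 32.0% for LRRTM4, against a median of 58.5% over all windows. IL1RAPL2 had 14 CpG dinucleotides, LRP1B 2 and LRRTM4 0, against a median of 10. Each window lies before the outermost annotated start of its gene. Windows before the other starts of NRXN3 and NLGN1 were not searched, and the start in use in these cells is not known. These features were not set against the levels that follow.

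The matrices held 104820 barcodes, of which 103519 were kept (200 to 7000 detected genes and at most 10% mitochondrial UMIs), with 106851387 to 180098372 UMIs per library. Barcodes below 2000 UMIs made up 11.5% to 48.3% of the kept barcodes of a library, and 1256 barcode sequences occurred in more than 1 library (55 to 119 per pair of libraries). STMN2, a tubulin regulator of growing neurons, had at least 1 UMI in 27.4% and 34.7% of cells with at least 2000 UMIs on D11 and in 75.2% to 82.5% on D28 and D45. This gate is not confined to neurons: of cells with at least 50 UMIs of fibroblast collagen genes, 61.8% to 63.8% on D28 and D45 also had an STMN2 UMI, and 4.84% to 8.65% had at least 5. The limit of 5 UMIs was also passed on those days by cells with as many UMIs of other lists, by 13.2% to 19.3% for floor plate genes, 16.4% to 29.6% for mitotic genes, 4.17% to 11.7% for oligodendrocyte-lineage genes and 6.83% to 55.6% for astrocyte genes (the last in a library with 18 such cells), so this stricter gate also holds other cells. Levels in cells with at least 5 STMN2 UMIs are given beside those of all STMN2-positive cells, a limit that was chosen after these shares were seen. The labels name the cells midbrain dopaminergic neurons, whereas only 162 to 711 cells per library were STMN2-positive and had a UMI of TH, the enzyme that makes the dopamine precursor, together with one of DDC or SLC18A2. Doublets were neither called nor removed here beyond the limit on detected genes. Levels are given as CPM (counts per 1000000) of a sum of cells and are compared between libraries or cells for 1 gene at a time, never between genes.

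NRXN3, the neurexin, was higher on each later day over all kept cells and in STMN2-positive cells as a whole. In STMN2-positive cells with no GAD1 or GAD2 UMI, a split described below, D28 and D45 overlapped. These had 202 and 259 CPM on D28 and 199 and 256 on D45. Over all kept cells the D11 libraries A and B had 44.6 and 47.2 CPM, those of D28 199.8 and 367 and those of D45 785 and 639. The days did not overlap, and the 2 D28 libraries stood furthest apart in relative terms. In STMN2-positive cells the levels were 75.8 and 64.7, then 211 and 467, then 866 and 739 CPM, and with at least 5 STMN2 UMIs they were 149 and 124, then 290 and 729, then 1299 and 1334 CPM. The fitted log2 difference over all kept cells was 2.33 ± 0.27 (SE) from D11 to D28 and 1.21 ± 0.26 from D28 to D45. For the background, 12.5% of 22197 genes were called higher and 10.6% lower on D28 than on D11, and 4.51% were called higher and 4.95% lower on D45 than on D28 (edgeR, adjusted p under 0.05).

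NLGN1, the neuroligin, had 185.5 and 124 CPM over all kept cells of D11, 262 and 468 over those of D28 and 914 and 783 over those of D45. The days did not overlap here either. On D45 the sums of all cells with no STMN2 UMI had 701 and 583 CPM of NLGN1, beside 919.5 and 814.5 in STMN2-positive cells. For NRXN3 the same sums had 251 and 186 CPM, beside 866 and 739. NRXN3 was not low in every STMN2-negative cell, since those that met none of the marker gates described below had more than these sums. Those cells were not shown to be free of neurons. STMN2-positive cells had 220 and 146 CPM of NLGN1 on D11 and 286 and 516 on D28. With at least 5 STMN2 UMIs the D11 libraries had 246 and 205 CPM, the D28 libraries 383 and 650 and the D45 libraries 1052 and 1094, and the days again did not overlap. Its fitted log2 difference between STMN2-positive and STMN2-negative cells was 0.44 ± 0.07 (SE), the smallest positive one of the members.

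LRRTM4, a postsynaptic neurexin ligand, followed another course once cells were split. Over all kept cells the D11 libraries had 51.2 and 53.2 CPM, the D28 libraries 76.1 and 95.3 and the D45 libraries 257 and 198. In cells with at least 5 STMN2 UMIs it was already at 425 and 397 CPM on D11, then at 143 and 199.8 on D28 and at 386 and 466 on D45. The D28 libraries were therefore the lowest of the strict STMN2 gate, and the D11 and D45 libraries overlapped. Cells with no STMN2 UMI had only 2.07 and 2.58 CPM on D11, and 94.96% and 93.0% of the LRRTM4 UMIs in D11 cells of at least 2000 UMIs lay in cells with at least 5 STMN2 UMIs, which held 11.3% and 12.4% of all UMIs. On D45 that share was 64.6% and 76.0%. No other member was tied to STMN2 so closely on D11, where the share ran from 1.94% (LRP1B) to 37.9% (NRXN3).

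IL1RAPL2 was nearly absent on D11. The D11 libraries had 1.12 and 1.19 CPM over all kept cells (178 and 214 UMIs), beside 21.0 and 22.4 in the D28 libraries and 33.9 and 26.7 in the D45 libraries. The fitted log2 difference from D11 to D28 was 3.97 ± 0.21 (SE), and from D28 to D45 it was 0.33 ± 0.18 (0.20 to 0.46 when 1 library was left out, lowest without library A of D45). In cells with at least 5 STMN2 UMIs the D28 levels (41.4 and 47.0 CPM) and the D45 levels (41.5 and 51.4 CPM) overlapped.

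TENM2, the teneurin, had 53.3 and 44.2 CPM in the D11 libraries, 172 and 493 in the D28 libraries and 607 and 441.5 in the D45 libraries. Library B of D28 lay inside the D45 range, so only the step from D11 to D28 separated the libraries. In cells with at least 5 STMN2 UMIs, library B of D28 was the highest of all libraries with 1039 CPM, beside 342 in library A of the same day and 738 and 855 on D45. The fitted log2 difference from D28 to D45 was 0.56 ± 0.40 (SE) over all kept cells, and it was 0.10 ± 0.20 without library A of D28 and 1.33 ± 0.22 without library B of D28.

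LRP1B, the endocytic receptor, took another course than the other members. Over all kept cells the D11 libraries had 779 and 799.8 CPM, the D28 libraries 1644 and 2169 and the D45 libraries 824 and 851, so that D28 stood above both other days. It was lower where STMN2 was high: on D11 it had 134 and 173 CPM in cells with at least 5 STMN2 UMIs and 895.5 and 914 in cells with none, and on D28 1017 and 1221 beside 2027 and 2816. On D45 the libraries of the strict gate (712 and 831) and of STMN2-negative cells (762 and 799) overlapped. The fitted log2 difference between STMN2-positive and STMN2-negative cells was -0.52 ± 0.12 (SE), the only negative one among the members, while the others ran from 0.44 (NLGN1) to 3.34 (LRRTM4). Over all genes tested, 16.3% were called higher and 23.8% lower in STMN2-positive cells, against which the 5 members above and 1 below zero are set with nothing read from them, since the members were chosen with such results known.

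**Figure D1:**
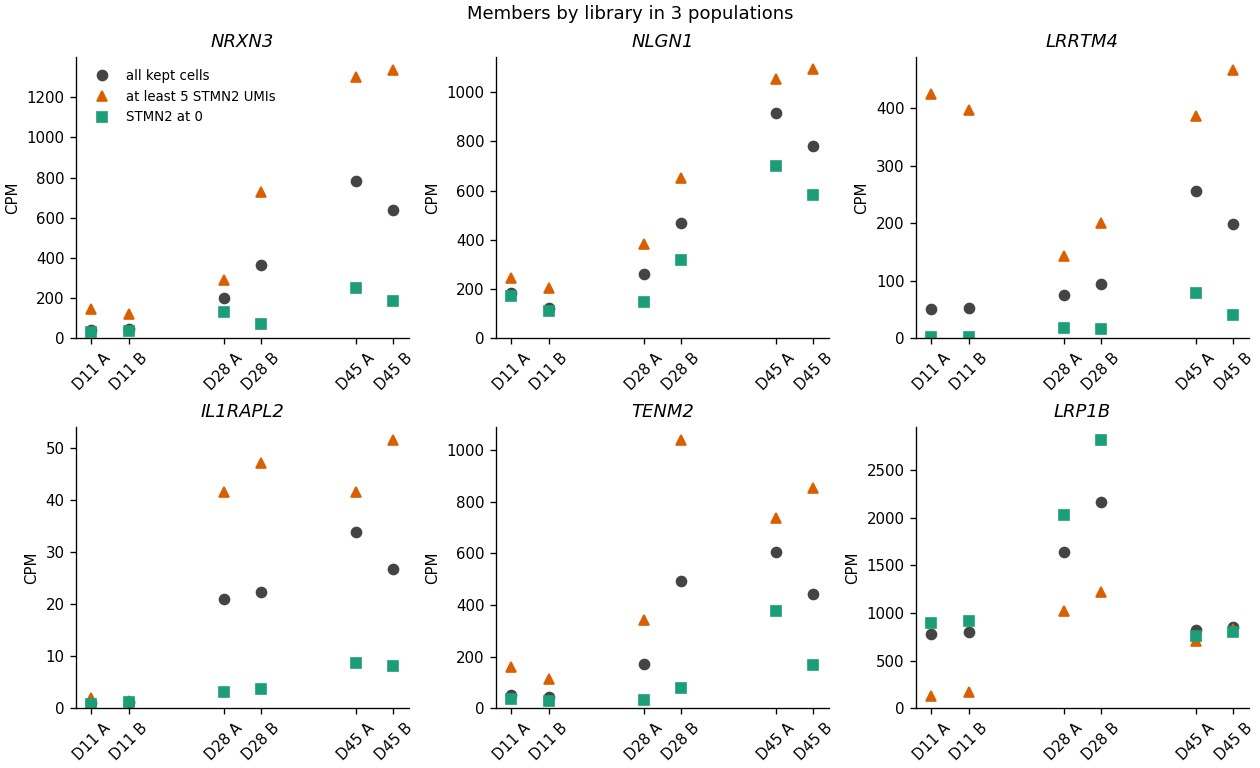
Level of each member in CPM (y axis, linear, from 0) by library (x axis), in all kept cells (circles), cells with at least 5 STMN2 UMIs (triangles) and cells with no STMN2 UMI (squares), each point 1 library. NRXN3 climbs from 124 to 1334 CPM in the strict STMN2 gate, LRRTM4 dips on D28 in that gate, and only for LRP1B do the STMN2-negative cells lie highest on D11 and D28.

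The share of cells with a UMI was counted with and without thinning, since it depends on the depth of a cell. In STMN2-positive cells NRXN3 had a UMI in 19.6% ± 0.98 (SD, n = 2 libraries) of D11 cells, 38.2% ± 0.20 of D28 cells and 46.4% ± 2.9 of D45 cells. When each cell was thinned to 2000 UMIs these shares were 7.68% ± 0.43, 21.7% ± 2.0 and 32.3% ± 3.8. For comparison, cells of 2 gates without STMN2 were counted in the same way. The fibroblast gate had NRXN3 in 20.3% ± 5.9 of thinned cells on D28 and 14.1% ± 3.8 on D45, with a median of 12226 to 15119 UMIs per cell before thinning beside 8967 to 9451 in STMN2-positive cells on those days. The floor plate gate had it in 4.43% ± 0.31 of thinned cells on D28 and 16.1% ± 0.33 on D45, so these gates did not share 1 background level. The D28 share of NRXN3 in STMN2-positive cells was at the level of the fibroblast gate and above the floor plate gate, and the D45 share was above both. IL1RAPL2 had a UMI in 3.51% ± 0.85 of thinned STMN2-positive cells on D28 and 3.87% ± 0.53 on D45 beside 0.370% ± 0.11 and 0.574% ± 0.13 in the fibroblast gate. LRRTM4 had 11.15% ± 0.48 and 16.7% ± 1.4 beside 3.57% ± 2.6 and 2.99% ± 1.6. LRP1B on D28 had 57.2% ± 3.1 beside 50.3% ± 18, and on D45 39.7% ± 2.4 beside 34.0% ± 1.8, so its share in STMN2-positive cells was not separable from the fibroblast gate on D28. The floor plate gate had LRP1B in 91.2% ± 5.4 of thinned cells on D28 and 67.3% ± 5.5 on D45, above STMN2-positive cells on both days. It had IL1RAPL2 in 0.674% ± 0.28 and 1.55% ± 0.53, and LRRTM4 in 1.85% ± 0.67 and 6.28% ± 4.7. In thinned cells that had at least 5 STMN2 UMIs before thinning, the shares on D28 and D45 were 26.2% ± 4.3 and 40.8% ± 1.3 for NRXN3, 4.65% ± 1.4 and 4.54% ± 0.54 for IL1RAPL2, 14.998% ± 0.86 and 21.6% ± 3.2 for LRRTM4, and 50.8% ± 5.0 and 35.4% ± 4.0 for LRP1B.

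Cells were then placed in marker gates. GABAergic cells were STMN2-positive with at least 2 UMIs of GAD1 and GAD2, the enzymes that make GABA, and carried SLC32A1, the vesicular GABA transporter, at 10.2 to 37.9 CPM where the glutamatergic gate had at most 1.24. Glutamatergic cells had at least 2 UMIs of SLC17A6, a vesicular glutamate transporter, and none of GAD1 or GAD2. Astrocyte, oligodendrocyte-lineage, fibroblast, mitotic and floor plate gates required at least 5 UMIs of their lists and no STMN2. STMN2-positive cells outside the GABAergic and glutamatergic gates are called the remaining STMN2-positive cells and were not all neurons by their markers: the microtubule gene MAPT had a median of 203 CPM over their 6 library sums, beside 659 in the GABAergic and 692 in the glutamatergic gate, and the fibroblast collagen gene COL1A1 reached 643. On D45 the gates defined by a marker, with at least 50 cells in both libraries, were put in order for each member, which leaves out the mitotic gate (46 cells in library A), a ciliated gate (12 cells in library B) and the 642 and 602 cells with no STMN2 that met no gate.

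NRXN3 was highest in the GABAergic gate on D45, with 3118 and 3820 CPM, followed by the TH gate with 1982 and 1800.3 CPM and, far below, the glutamatergic gate with 291 and 286. The glutamatergic gate and the remaining STMN2-positive cells (253 and 290) overlapped, and the oligodendrocyte-lineage gate was the lowest of the ordered gates with 70.7 and 49.5. The cells that met no gate had 1005 and 845 CPM, above the glutamatergic gate. Over the 6 library sums of all days these cells reached 134 CPM of GAD2 and 195 of MAPT, with medians of 13.9 and 46.7. They were thus not shown to be free of neurons, although they had no STMN2 UMI. Of the TH gate, 40.9% and 19.2% of cells also had at least 2 GAD UMIs on D45. Among TH-gate cells with no GAD UMI, NRXN3 was still at 898 and 1320 CPM on D45 and at 897 and 1698 on D28, above every glutamatergic sum, which reached 291 at most. The GABAergic gate held 18.2% and 11.2% of the D45 cells of at least 2000 UMIs, and 71.4% and 60.9% of their NRXN3 UMIs.

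The postsynaptic members had other orders. NLGN1 on D45 was highest in the glutamatergic gate (1539 and 1298 CPM), next in the GABAergic gate (1218 and 1229), and then in the oligodendrocyte-lineage gate (1123 and 1178), which overlapped the TH gate (1148 and 999). The astrocyte gate had 786 and 778 CPM of NLGN1, above the remaining STMN2-positive cells at 766 and 680. LRRTM4 was highest in the glutamatergic (855 and 586) and GABAergic (414 and 677) gates, which overlapped, and stayed between 17.7 and 109 CPM in the non-neuronal gates. On D11, among gates with at least 50 cells, it was highest in the TH gate, at 482 to 577 CPM. The TH gate then had 64.8 to 142 CPM on D28 and 242 to 337 on D45. The glutamatergic gate had 123 to 179 CPM on D11 and 211 to 282 on D28, so it showed no dip. IL1RAPL2 had 74.9 and 55.5 CPM in the glutamatergic gate and 62.6 and 68.9 in the GABAergic gate, again overlapping, and at most 11.5 in any non-neuronal gate on D45.

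TENM2 was highest in the glutamatergic gate on D45 (1164 and 1233 CPM), then in the GABAergic gate (955 and 1018), which overlapped the oligodendrocyte-lineage gate (1062 and 488). Astrocyte and fibroblast sums had 35.7 to 79.8 CPM of TENM2, so within the non-neuronal gates the oligodendrocyte lineage stood apart. LRP1B was highest in the floor plate gate, the ventral midline progenitors, on both later days: 3054 and 3553 CPM on D28 and 1460 and 2315 on D45. On D45 the glutamatergic gate followed with 1231 to 1252 CPM, and the astrocyte (474 and 559) and oligodendrocyte-lineage (597 and 496) gates were the lowest of the ordered ones and overlapped. The floor plate gate itself shrank from 6835 and 7209 cells on D11 to 689 and 1677 on D28 and to 104 and 170 on D45. It takes only cells with no STMN2 UMI. Among cells with at least 50 floor plate UMIs, 18.6% and 26.9% had an STMN2 UMI in the D11 libraries. In the D28 libraries 78.9% and 60.2% had one, and in those of D45 80.0% and 87.5%. Such cells, with or without STMN2, numbered 1647, 166 and 35 by day in the A libraries and 1269, 812 and 16 in the B libraries. The part of the STMN2 rule in the shrinking of the gate was not tested.

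**Figure D2:**
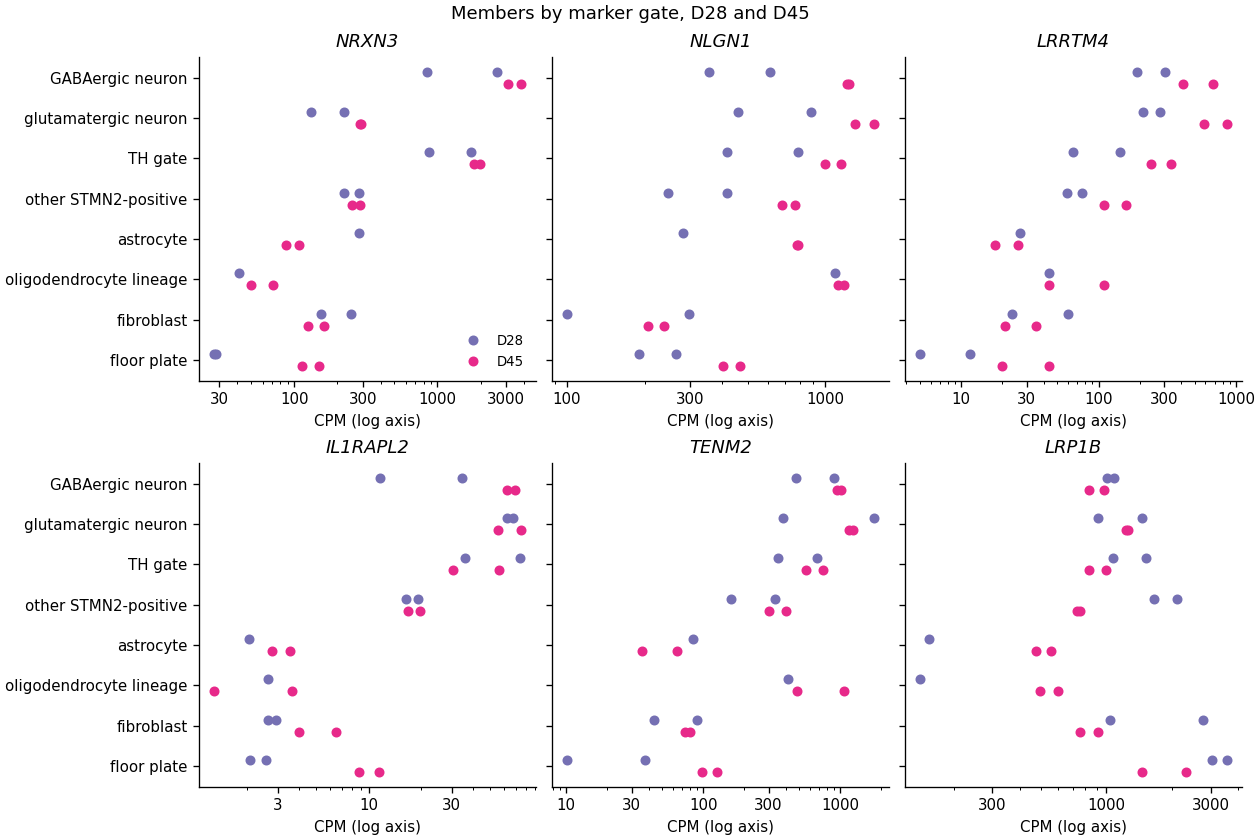
Level of each member in CPM (x axis, log scale) in marker gates (y axis) on D28 and D45, each point the sum of 1 library with at least 50 cells. NRXN3 lies rightmost in the GABAergic and TH gates (3820 CPM at most), LRP1B in the floor plate gate (3553 CPM at most), and NLGN1 and TENM2 are also high in the oligodendrocyte lineage.

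The contrast between GAD-positive and GAD-negative STMN2-positive cells is not named in the rule for the members, and all were tested in it with the library as a term (edgeR, 18261 genes tested, Benjamini-Hochberg over all of them). The readouts behind the choice of the members are not recorded, so the p-values are not shown to be independent of that choice. Library A of D11 had only 17 GAD-positive cells and was left out, which left 5 libraries, with library B of D11 resting on 24 GAD-positive cells and library A of D28 on 66. Over all genes 14.6% were called higher and 23.4% lower in GAD-positive cells. Of the 6 members, 4 were called higher, 0 lower and 2 missed the threshold.

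NRXN3 had 2483 CPM in GAD-positive and 53.0 in GAD-negative cells of library B of D11. On D28 it had 842 and 2593 CPM in the GAD-positive cells of libraries A and B beside 202 and 259, and on D45 3118 and 3820 beside 199 and 256. The GAD-positive cells were higher in 5 of 5 libraries without overlap, and the log2 difference was 3.61 ± 0.39 (SE), with an edgeR adjusted p of 6.5e-05. It was also called in all 13 alternatives, with log2 differences from 3.07 to 4.02 and adjusted p from 1.6e-18 to 0.000505. In GAD-negative cells the D28 and D45 libraries overlapped.

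TENM2 was higher in GAD-positive cells by 1.21 ± 0.21 (SE) on the log2 scale (edgeR adjusted p = 0.00125), in 5 of 5 libraries. LRRTM4 was higher by 0.97 ± 0.30 (edgeR adjusted p = 0.0248), in 4 of 5 libraries, with library B of D11 the exception at 86.6 CPM in GAD-positive and 141 in GAD-negative cells. NLGN1 was higher by 0.41 ± 0.11 (edgeR adjusted p = 0.0149), in 5 of 5 libraries, with 1218 and 1229 CPM in the GAD-positive cells of D45 beside 844 and 739. IL1RAPL2 at 0.83 ± 0.31 (edgeR adjusted p = 0.0566) and LRP1B at -0.79 ± 0.35 (edgeR adjusted p = 0.101) did not pass. With at least 5 STMN2 UMIs on both sides the values were 0.55 ± 0.20 for TENM2 (edgeR adjusted p = 0.104), 0.18 ± 0.34 for LRRTM4 (0.803) and 0.11 ± 0.11 for NLGN1 (0.586), so of the 4 calls NRXN3 alone was kept (3.07 ± 0.35, edgeR adjusted p = 0.000505). The NLGN1 call was also lost with no filter on low counts, with at least 2 STMN2 UMIs and after thinning, and the LRRTM4 call with at least 2 STMN2 UMIs. The LRRTM4 call was lost without library A of D28 (edgeR adjusted p = 0.0808), A of D45 (0.0573) or B of D45 (0.0677). IL1RAPL2 passed without library A or B of D28 (edgeR adjusted p = 0.00757 and 0.0256), and LRP1B without library B of D45 (0.0496). Without library B of D11 the LRP1B value was -0.42, and without library A or B of D45 the IL1RAPL2 value was 0.56 or 0.48.

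Of these 4 calls, NRXN3 alone also passed against glutamatergic cells. The GAD-negative side held every STMN2-positive cell without GAD1 or GAD2, fibroblast-marker cells included, and when it was limited to the glutamatergic gate, an alternative chosen after the data were seen, NRXN3 was still higher in the GABAergic gate by 3.49 ± 0.19 (SE; edgeR adjusted p = 1.8e-06). TENM2 then differed by -0.19 ± 0.17 (edgeR adjusted p = 0.669), LRRTM4 by -0.38 ± 0.20 (adjusted p = 0.414), NLGN1 by -0.22 ± 0.13 (adjusted p = 0.507), IL1RAPL2 by -0.52 ± 0.25 (adjusted p = 0.367) and LRP1B by -0.47 ± 0.15 (adjusted p = 0.141). Over 13 alternatives the adjusted p ran from 1.3e-05 to 0.669 for TENM2, from 0.000944 to 0.803 for LRRTM4, from 0.00189 to 0.586 for NLGN1, from 0.00351 to 0.854 for IL1RAPL2 and from 0.00899 to 0.529 for LRP1B, whose value ran from -1.02 to -0.21, the latter with at least 5 STMN2 UMIs.

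**Figure D3:**
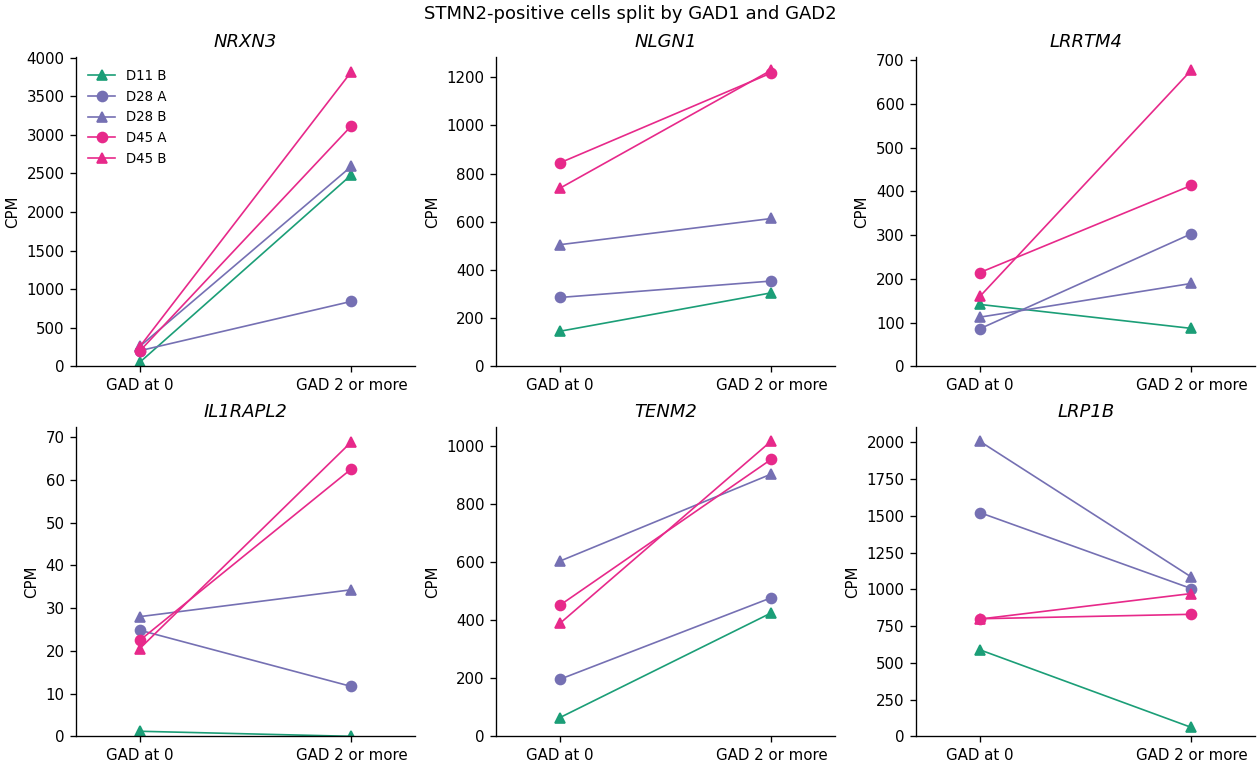
Level of each member in CPM (y axis, linear, from 0) in STMN2-positive cells with no GAD1 or GAD2 UMI and with 2 or more (x axis), lines joining both sums of 1 library. NRXN3 rises in every library, to 3820 CPM at most, while LRP1B falls in D11 and D28 libraries and rises slightly in both D45 libraries.

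The GAD difference itself differed between D28 and D45 for 3 members. That was tested with every GAD-negative STMN2-positive cell as the other side. It was not tested with at least 5 STMN2 UMIs or against the glutamatergic gate. Days and STMN2-positive cells, which enter this test, are both named in the rule for the members. Its p-values are therefore not shown to be independent of the choice of the members. The test of that difference used 18612 genes, of which 1.34% were called higher and 1.11% lower on D45. The signed log2 difference was higher on D45 for IL1RAPL2 by 1.57 ± 0.26 (SE; edgeR adjusted p = 0.0016), for NRXN3 by 1.28 ± 0.29 (edgeR adjusted p = 0.0174) and for LRP1B by 0.98 ± 0.17 (edgeR adjusted p = 0.00276). For LRP1B this was a move towards zero, from -0.60 and -0.89 in the D28 libraries to 0.05 and 0.28 in those of D45. IL1RAPL2 was at 11.7 and 34.3 CPM in GAD-positive cells of D28 and at 62.6 and 68.9 in those of D45, with GAD-negative cells between 20.5 and 28.0. LRP1B was at 1523 and 2008 CPM in GAD-negative cells of D28 and at 800.2 and 798 in those of D45, with GAD-positive cells between 831 and 1083 on both days. The glutamatergic gate, by contrast, had 911 to 1450 CPM of LRP1B on D28 and 1231 to 1252 on D45. For NRXN3 that gate had 131 to 223 CPM on D28 and 286 to 291 on D45. For IL1RAPL2 it had 62.3 to 67.8 and 55.5 to 74.9 CPM. NLGN1 at 0.39 ± 0.17, TENM2 at 0.38 ± 0.19 and LRRTM4 at 0.34 ± 0.29 did not pass (edgeR adjusted p = 0.345, 0.436 and 0.723). The TENM2 value ran from 0.12 without library B of D28 to 0.62 without library A of D28 and passed in neither case (edgeR adjusted p = 0.815 and 0.0548). Both D28 libraries moved these values, and with 1 library left out its day rests on the other library, so that the spread comes from the libraries of the other day alone and the lone library is assumed to vary like them. The NRXN3 value was 0.58 ± 0.18 without library A of D28 (edgeR adjusted p = 0.0837) and 2.05 ± 0.19 without library B of D28 (edgeR adjusted p = 3.6e-06). The IL1RAPL2 value was 1.29 ± 0.21 without library A of D28 (edgeR adjusted p = 0.000197) and 2.87 ± 0.39 without library B of D28 (edgeR adjusted p = 0.000239), and the LRP1B call was lost without library B of D45, at 0.86 ± 0.28 (edgeR adjusted p = 0.0956).

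Barcodes below 2000 UMIs carried relatively more of every member. The ratio of CPM below over CPM at or above 2000 UMIs was over 1 in 6 of 6 libraries for all 6 members. Its median over libraries was 1.81 for NRXN3 (1.16 to 2.32), 1.56 for NLGN1 (1.21 to 1.65), 2.28 for LRRTM4 (1.25 to 2.82), 2.34 for IL1RAPL2 (1.19 to 4.14), 1.94 for TENM2 (1.19 to 2.73) and 1.44 for LRP1B (1.202 to 1.69). The median over 8079 genes of at least 20 CPM was 1.01 to 1.16 by library. In the fit given below, 40.7% of 12690 genes with a known span had a log2 difference above zero. Among the 100 genes at least as long as LRRTM4 that share was 96.0%, so nothing particular to the members is read from the count. Library B of D11 gave the lowest ratio for 5 of the members.

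On D45 the shift was widest for IL1RAPL2, with 108 and 94.6 CPM below 2000 UMIs and 27.9 and 22.8 at or above. For TENM2 these were 1466 and 973 beside 537 and 411, and for LRRTM4 638 and 436 beside 226 and 185. Low-depth barcodes thus held 23.8% and 19.3% of the IL1RAPL2 UMIs of D45 and 18.6% and 11.98% of those of LRRTM4, but 7.496% and 5.44% of all UMIs.

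The fitted log2 differences, which are scaled to the other genes, were 1.16 ± 0.20 (SE) for IL1RAPL2, 0.79 ± 0.13 for LRRTM4, 0.64 ± 0.15 for TENM2, 0.55 ± 0.11 for NRXN3, 0.27 ± 0.10 for NLGN1 and 0.21 ± 0.10 for LRP1B. With STMN2-positive barcodes on both sides they were 1.31 ± 0.17, 0.55 ± 0.14, 0.62 ± 0.14, 0.37 ± 0.11, 0.26 ± 0.10 and 0.34 ± 0.09 in the same order. The sides were not matched for STMN2 level, since a limit of 1 UMI is stricter at low depth. Such barcodes had a median of 685.5 to 864 UMIs by library below the limit and 8967 to 11872 at or above. The part of this mismatch was not tested. Of 19396 genes, 19.7% were called higher and 27.3% lower below 2000 UMIs, and nothing about the members is read from it. Gene span moved with this contrast: the median log2 difference was -0.54 over 2517 genes under 10 kb, -0.14 over 7637 genes of 10 to 100 kb, 0.16 over 2306 genes of 100 to 500 kb and 0.35 over 230 genes of at least 500 kb. Of the 100 genes at least as long as LRRTM4, 96.0% had a value above zero and the median was 0.41. The part of gene span in the members' shift was not tested. The median mitochondrial share below and at or above 2000 UMIs was 0.549% and 1.38% in library A of D11 and 1.01% and 0.720% in library A of D45, so it did not move in 1 direction.

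**Figure D4:**
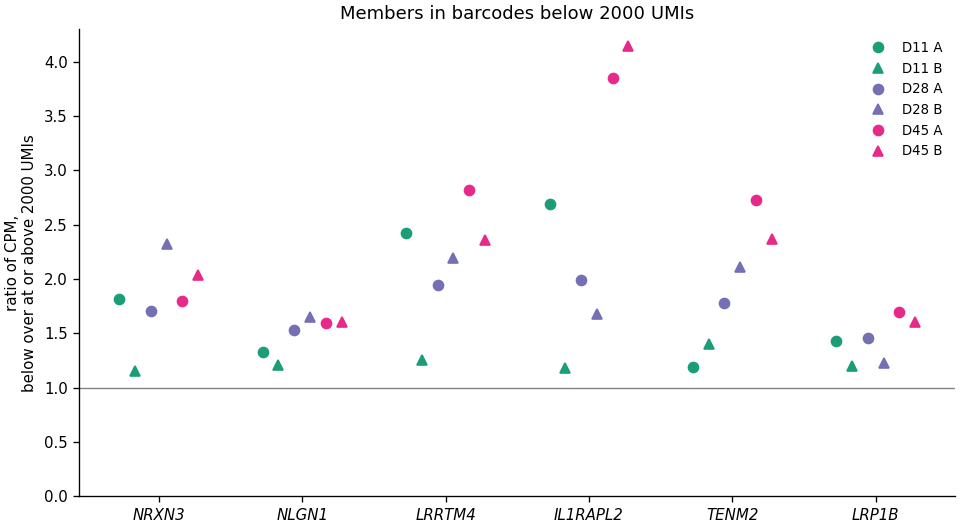
Ratio of each member's CPM in barcodes below 2000 UMIs to that in barcodes at or above 2000 UMIs (y axis, linear, from 0), each point 1 library, with the line at a ratio of 1. All 36 points lie above 1, and the IL1RAPL2 points of D45 lie highest, at 3.85 and 4.14.

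A list of 85 partner genes was set beside the members by role, of which 78 matched a gene of the matrices. The list was chosen with earlier results of these data known, so its counts are descriptions set beside those over all genes, and nothing particular to the list is read from them. Of the contactin-associated neurexin relatives, CNTNAP5 was higher in STMN2-positive cells, at 99.3 to 201 CPM beside 3.50 to 19.4 (log2 difference 3.74 ± 0.46 SE, edgeR adjusted p = 0.000768). Of the leucine-rich repeat ligands 7 were called higher and 0 lower of 11, and of the scaffolds 7 higher and 0 lower of 10. Of the modifiers and other adhesion genes 5 of 9 were called higher and of the LAR-type receptor phosphatases 1 of 3, with 0 lower in both. In 4 other roles calls went both ways or lower, with 10 higher and 3 lower of 18 secreted linkers and their receptors, 3 and 3 of 9 teneurins and latrophilins, 2 and 3 of 10 genes of the LDL receptor family and 0 and 1 of 2 of the interleukin-1 receptor type. Of the whole list 40 were called higher and 10 lower, with a median log2 difference of 0.38 beside -0.05 over all genes, where 16.3% of genes were called higher and 23.8% lower. The secreted neurexin linkers C1QL2 and CBLN2 were among the largest rises, at 4.52 ± 0.94 (edgeR adjusted p = 0.00699) and 3.446 ± 0.54 (edgeR adjusted p = 0.00208).

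From D11 to D28, 26 of the 78 partners (33.3%) were called higher and 9 (11.5%) lower over all kept cells, beside 12.5% and 10.6% of all genes, with a median log2 difference of 0.36 beside 0.03 over all genes. NXPH1, a secreted neurexophilin that binds neurexins, had 1.26 to 1.36 CPM on D11 and 55.7 to 78.6 on D28 (5.40 ± 0.22 SE, edgeR adjusted p = 0.00026). NTRK3, a neurotrophin receptor that also binds PTPRS, rose by 3.83 ± 0.24 (edgeR adjusted p = 0.000621), and LRRTM2, a paralog of LRRTM4, by 2.68 ± 0.35 (edgeR adjusted p = 0.00313). C1QL2 fell by 3.24 ± 0.43 (edgeR adjusted p = 0.00345), LRP2, a relative of LRP1B, fell by 2.81 ± 0.30 (edgeR adjusted p = 0.00168), and the calsyntenin CLSTN2 fell by 1.73 ± 0.34 (edgeR adjusted p = 0.0131). In STMN2-positive cells 21 were called higher and 7 lower, beside 8.57% and 7.81% of 21242 genes. There NXPH1 (4.48 ± 0.23), NTRK3 (4.03 ± 0.25) and the cerebellin CBLN1 (1.68 ± 0.27) rose most, and C1QL2 fell by 4.38 ± 0.38, CBLN4 fell by 2.63 ± 0.53 and LRP2 fell by 2.45 ± 0.28. Without library A or B of D11 only 12 and 14 partners were called over all kept cells, and 5 each in STMN2-positive cells, whereas without library B of D28 there were 53 and 44. Without library A or B of D45 18 each were called in STMN2-positive cells.

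From D28 to D45, 3 of the 78 partners (3.85%) were called higher and 5 (6.41%) lower over all kept cells, beside 4.51% and 4.95% of all genes, so both shares were near the background. MDGA2, which binds neuroligins and blocks neurexin binding, had 102 to 167 CPM on D28 and 301 to 410 on D45 (1.27 ± 0.23 SE, edgeR adjusted p = 0.0243), NTRK3 rose by 1.27 ± 0.21 (edgeR adjusted p = 0.0207) and LRP5 by 0.89 ± 0.22 (edgeR adjusted p = 0.0498). CBLN2 fell by 1.94 ± 0.37 (edgeR adjusted p = 0.0273), IL1RAP, a receptor of the same family as IL1RAPL2, fell by 1.39 ± 0.16 (edgeR adjusted p = 0.00785) and FLRT3, a latrophilin ligand, fell by 1.29 ± 0.26 (edgeR adjusted p = 0.0326). In STMN2-positive cells 2 were called higher (MDGA2 and NTRK3) and 3 lower (CBLN2, IL1RAP and LRRTM1), beside 3.67% and 2.74% of all genes. These counts changed with the libraries in the fit: they fell without either D45 library and rose without either D28 library. They also fell without either D11 library, although D11 is not in this contrast. All days share 1 estimate of the spread, and the part of the smaller fit in these changes was not tested. DESeq2 called 17 and 14 with all libraries.

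Below 2000 UMIs 33 partners were called higher and 9 lower, beside 19.7% and 27.3% of all genes, with a median log2 difference of 0.19 beside -0.01. No called partner had all its sums below 2000 UMIs apart from all those at or above. That comparison pools the days and ignores the pairing within a library. The direction of each partner by library was not counted. In this contrast 93.9% of all genes of at least 500 kb had a value above zero, and the part of gene span in the partners' shift was not tested. In GAD-positive cells 33 were called higher and 12 lower (median 0.32 beside -0.03 over all genes). CBLN1 was higher (1.00 ± 0.26 SE, edgeR adjusted p = 0.0116), as was the postsynaptic scaffold SHANK2 (0.90 ± 0.15, edgeR adjusted p = 0.000925), and 9 of 10 scaffolds were called higher, beside 14.6% of all genes. Of the secreted linkers and their receptors 4 were called higher and 6 lower, and of the LDL receptor family 1 higher and 4 lower. The 12 partners called lower were 15.4% of the list, beside 23.4% of all genes. With at least 5 STMN2 UMIs on both sides, the partners called fell in number from 45 to 15. In the main fit, with all STMN2-positive cells, C1QL3 was lower in GAD-positive cells by 2.46 ± 0.26 (edgeR adjusted p = 5.2e-05). LRP4 was lower there by 2.00 ± 0.23 (edgeR adjusted p = 8.6e-05) and FLRT3 by 1.39 ± 0.18 (edgeR adjusted p = 0.000216). Without library B of D45 the number called was 29, and with the glutamatergic gate as the other side it was 6. The signed GAD difference was higher on D45 than on D28 for 5 partners and lower for 1, CADM4 (from between -0.10 and 0.25 to between -0.90 and -0.45), which is 6.41% and 1.28% of the 78 beside 1.34% and 1.11% of all genes. Among the former was IL1RAPL1 (1.04 ± 0.21, edgeR adjusted p = 0.00927), the paralog of IL1RAPL2, with DLG2 (1.00 ± 0.17, edgeR adjusted p = 0.00212) and C1QL3 (1.33 ± 0.34, edgeR adjusted p = 0.0391), which moved towards zero, from between -2.60 and -2.36 to between -1.58 and -1.19. These 6 calls became 10 without library A of D28 and 3 without library A or B of D45.

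Across 43 sums of a gate in a library, the pattern of each member was set against 7415 other genes of at least 20 CPM by Pearson's r of log2(CPM + 5), as a description, since sums share libraries and depth. NLGN1 was most like NTRK3 (r = 0.94), RCAN1 (0.92) and MDGA2 (0.92), LRRTM4 like MAPT (0.93), UNC79 (0.93) and JPH4 (0.92), and IL1RAPL2 like HS6ST3 (0.94), SLC4A10 (0.91) and GPR158 (0.91). TENM2 was most like TMEM181 (0.92), SERGEF (0.91) and PTPRO (0.90), LRP1B like CDH18 (0.87), DYNC1I1 (0.82) and IQCJ (0.81), and NRXN3 like SLC25A12 (0.85), GPR158 (0.83) and EPHA6 (0.83). Among the members themselves LRRTM4 and TENM2 were closest (0.83), and NLGN1 and TENM2 were furthest from LRP1B (both 0.03).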

How the data were processed

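Single cells of 6 libraries were analysed. Per the file headers and methods, the authors counted UMIs per gene and barcode with Cell Ranger 8.0.1 on Sscrofa11.1, and the deposited matrices hold these raw counts. Per the labels, Seurat 4.3.0 was used downstream. Whether reads in introns were counted is not given in the sources used here. Of the genes, 16266 were named in the files and 834 by the reference. The mitochondrial share came from 13 protein-coding genes. No columns of other samples were used (0). Members and gene lists were chosen with earlier results of these data known.

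Counts were summed per library and population (at least 20 cells) and fitted with edgeR 4.0.16 (filterByExpr, TMM, quasi-likelihood test, Benjamini-Hochberg, threshold 0.05), and checked on simulated data. All libraries shared 1 fit for days, and splits had the library as a term. The SE of an edgeR value is the size of the log2 difference divided by the square root of its quasi-likelihood F statistic. Alternatives were DESeq2 1.42.0 (also its size factors in edgeR), no filter, leaving out 1 library at a time, a block for the letter A or B, other limits of STMN2, GAD and UMIs, all barcodes, and thinning to 2000 UMIs (seed 7). Named partners are the 3 largest rises and falls past the threshold with libraries that do not overlap, where the sums of a split were pooled over days. Likeness uses the 3 highest r. Software was R 4.3.3 and python 3.11.15. Bulk data were not analysed here. Results for some items are not reported.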

Additional observations from a re-analysis of the deposited data

Results flagged for a closer look

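The members IL1RAPL2, NRXN3 and LRP1B were picked out because the difference between GAD-positive and GAD-negative STMN2-positive cells itself differed between D28 and D45 in a test of that difference (edgeR, adjusted over all genes). The test was not repeated with at least 5 STMN2 UMIs or against the glutamatergic gate. Its p-values are not shown to be independent of the choice of the members. The change on the log2 scale was 1.57 for IL1RAPL2, whose log2 ratio was -1.09 and 0.29 in the D28 libraries and 1.48 and 1.75 in the D45 libraries. It was 1.28 for NRXN3, with ratios of 2.06 and 3.33 on D28 and 3.97 and 3.90 on D45. It was 0.98 for LRP1B, with ratios of -0.60 and -0.89 on D28 and 0.05 and 0.28 on D45. Library A of D28 had 66 GAD-positive cells and 8 IL1RAPL2 UMIs in them, beside 801 to 1914 cells in the other libraries of those days. The part of this small sum in the result was not tested beyond leaving the library out, where IL1RAPL2 kept its call (1.29, edgeR adjusted p = 0.000197), LRP1B kept it (1.03, edgeR adjusted p = 0.000634) and NRXN3 lost it (0.58, edgeR adjusted p = 0.0837). With that library left out D28 is 1 library, so the spread behind these p-values comes from the D45 libraries alone.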

How the results depend on the processing

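The number of partner genes called between days changed when 1 library was left out, also where that library was of a day outside the contrast. Leaving out 1 library in turn gave 12 to 53 (all kept cells) and 5 to 44 (STMN2-positive cells) for D28 against D11, in place of 35 and 28, and 0 to 40 and 0 to 38 for D45 against D28, in place of 8 and 5. It gave 31 to 44 for the split at 2000 UMIs, 41 to 47 for STMN2, 29 to 52 for GAD and 3 to 10 for the change of the GAD difference, in place of 42, 50, 45 and 6. DESeq2 called 17 and 14 for D45 against D28 and 2 for the GAD change. With the letters A and B as a replicate block, 18 were called in STMN2-positive cells for D28 against D11, and 1 and 2 for D45 against D28. The letters were not shown to pair the samples, since the deviations of A from B correlated at -0.65 between D11 and D28, -0.47 between D28 and D45 and 0.33 between D11 and D45. With at least 2 or 5 STMN2 UMIs, 2 and 3 were called for D45 against D28. For GAD, 15 were called with at least 5 STMN2 UMIs and 6 against the glutamatergic gate. The causes were not tested.

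For the members in the GAD split, NRXN3 was called throughout. NLGN1 lost its call with no filter (0.29), with at least 2 (0.29) or 5 (0.11) STMN2 UMIs and after thinning (0.25), LRRTM4 with at least 2 (0.59) or 5 (0.18), and TENM2 with at least 5 (0.55). Against the glutamatergic gate NLGN1 (-0.22), LRRTM4 (-0.38), IL1RAPL2 (-0.52) and TENM2 (-0.19) turned negative. IL1RAPL2 passed with DESeq2's size factors (0.86), with at least 1 GAD UMI (0.74) and after thinning (0.61), and LRP1B with at least 1 GAD UMI (-0.67) and after thinning (-0.62). Without 1 library the values ran from 3.21 to 4.02 (NRXN3), 0.34 to 0.50 (NLGN1), 0.74 to 1.26 (LRRTM4), 0.48 to 1.09 (IL1RAPL2), 0.95 to 1.41 (TENM2) and -1.02 to -0.42 (LRP1B). LRRTM4 lost its call without library A of D28 (0.83), A of D45 (1.01) or B of D45 (0.74), IL1RAPL2 gained one without library A (1.09) or B (1.08) of D28 and LRP1B without library B of D45 (-1.02). The LRRTM4 change of the GAD difference ran from -0.25 to 0.88 without 1 library and was negative without library B of D28 (-0.13) or of D45 (-0.25).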
